A study of Mus musculus with 48 samples.

Results

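The 9 genes examined here carry the liver's bile acid production and traffic: Cyp7a1, Cyp8b1, Cyp27a1, Hsd3b7 and Akr1d1 (synthesis), Slc27a5 and Baat (conjugation), and Slc10a1 and Abcb11 (transport). They were chosen by symbol, and all 9 were listed in both deposited tables, 9 of 11275 genes in frozen liver (FROZ) and 9 of 6673 genes in formalin-fixed paraffin-embedded liver (FFPE). The samples were paired FROZ and FFPE pieces of the livers of 24 male B6C3F1 mice, a hybrid strain used in toxicity testing, which were 4 weeks old and received dichloroacetic acid (DCA), a by-product of water disinfection, in the drinking water for 6 days. Vehicle controls drank water without DCA (0 mg/kg-d), and the treated groups had estimated intakes of 198, 313 and 427 mg/kg-d, with 6 animals at each dose and 1 FROZ and 1 FFPE library from each animal. The pieces had been stored for decades and came from liver lobes that were partly different for FROZ and FFPE. RNA was isolated from FROZ liver, whereas FFPE sections were lysed. Expression was measured by TempO-Seq, in which pairs of detector oligos are ligated on the RNA and counted by sequencing.

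Bile acids are made from cholesterol in hepatocytes. CYP7A1 carries out the rate-limiting step of the classical route, and CYP27A1 begins an alternative route. The bile acid receptor FXR, encoded by Nr1h4, is known to raise Abcb11 and the corepressor Nr0b2 when bile acids are plentiful and thereby to lower Cyp7a1. The liver's Cyp7a1 transcript also follows a daily rhythm. By cell type markers the libraries were liver: 7 of 8 hepatocyte markers were listed in each table, and their summed level in FROZ controls lay between 38440 and 42400 CPM (the read count scaled to the same library total), against 129.7 to 148.7 CPM for 6 of 6 endothelial, 67.5 to 104 CPM for 5 of 6 macrophage and 32.9 to 45.0 CPM for 3 of 5 cholangiocyte markers.

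Depth differed between the preservations. The reads on listed genes, worked out from the smallest steps of the values and given in M (megareads), came to 6.69 to 9.84 M reads in FROZ libraries and 1.83 to 6.01 M in FFPE libraries. Every FROZ library held at least 141 reads of each of the 9 genes. In FFPE, 7 values were at 0, of 432 values in FROZ and FFPE together, with 4 for Baat, 2 for Cyp7a1 and 1 for Cyp27a1. A further limit was that 4 FFPE libraries, of animals 49, 52 and 54 at 198 mg/kg-d and 73 at 313 mg/kg-d, listed over 1000 genes at 0, and FFPE results are given below with and without them where that changed a call. Counting error alone permits as many as 3 reads behind a value at 0, so such a transcript was not shown to be absent.

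On the mouse genome (GRCm38, GENCODE vM21 annotation, all exons and introns included) the genes lie apart from each other, with Cyp7a1 and Baat both on chromosome 4 and Slc27a5 and Hsd3b7 both on chromosome 7. Cyp7a1 (ENSMUSG00000028240.2) lies at chr4:6265612-6275633 on the minus strand, and Cyp8b1 (ENSMUSG00000050445.4) at chr9:121914356-121916305 on the minus strand. Cyp27a1 (ENSMUSG00000026170.6) lies at chr1:74713574-74737892 on the plus strand, Hsd3b7 (ENSMUSG00000042289.11) at chr7:127800604-127803802 on the plus strand and Akr1d1 (ENSMUSG00000038641.12) at chr6:37530173-37568815 on the plus strand. Slc27a5 (ENSMUSG00000030382.15) lies at chr7:12988346-12998192 and Baat (ENSMUSG00000039653.9) at chr4:49489422-49506557, both on the minus strand. Slc10a1 (ENSMUSG00000021135.8) lies at chr12:80953183-80968705 and Abcb11 (ENSMUSG00000027048.15), the longest at 104.3 kb, at chr2:69238282-69342616, both on the minus strand. Hsd3b7 shared 93.9% of the 50-base stretches of its longest coding transcript with the overlapping gene Gm49388, so reads of the pair could be assigned to either, while the other 8 genes shared none with another gene.

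Promoters are shown for the exporter Abcb11, whose level passed the test, and for Slc10a1, Akr1d1 and Cyp8b1, whose levels did not. These are the 5 of 7 windows matched that held a motif searched. Each line gives the 250 bases upstream of a RefSeq transcription start (GRCm38.p6), 5′ to 3′ on the gene's strand, with matches to the motifs searched in capitals. The windows are chr2:69342617-69342866 for Abcb11, chr12:80968706-80968955 and chr12:80968080-80968329 for the 2 starts of Slc10a1, and chr9:121916306-121916555 for Cyp8b1, all on the minus strand, and chr6:37529923-37530172 for Akr1d1 on the plus strand.
Abcb11: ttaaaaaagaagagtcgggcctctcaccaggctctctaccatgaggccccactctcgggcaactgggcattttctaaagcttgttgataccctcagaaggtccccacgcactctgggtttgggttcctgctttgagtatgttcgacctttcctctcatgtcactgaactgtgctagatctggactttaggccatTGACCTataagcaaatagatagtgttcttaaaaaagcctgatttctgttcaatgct
Slc10a1, first window: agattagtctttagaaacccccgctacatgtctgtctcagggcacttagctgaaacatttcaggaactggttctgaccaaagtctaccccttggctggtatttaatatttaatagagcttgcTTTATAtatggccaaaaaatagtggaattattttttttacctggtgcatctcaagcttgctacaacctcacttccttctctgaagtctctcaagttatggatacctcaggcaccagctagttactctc
Slc10a1, second window: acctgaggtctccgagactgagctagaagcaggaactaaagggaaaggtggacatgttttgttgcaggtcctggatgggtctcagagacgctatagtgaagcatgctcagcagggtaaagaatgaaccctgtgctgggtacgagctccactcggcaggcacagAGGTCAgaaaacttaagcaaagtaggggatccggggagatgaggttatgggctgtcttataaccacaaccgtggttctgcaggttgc
Akr1d1: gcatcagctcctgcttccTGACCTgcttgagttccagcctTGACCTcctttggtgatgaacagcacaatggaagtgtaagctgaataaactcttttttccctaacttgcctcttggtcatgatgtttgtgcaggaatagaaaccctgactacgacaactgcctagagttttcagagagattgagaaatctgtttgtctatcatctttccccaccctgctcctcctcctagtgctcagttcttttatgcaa
Cyp8b1: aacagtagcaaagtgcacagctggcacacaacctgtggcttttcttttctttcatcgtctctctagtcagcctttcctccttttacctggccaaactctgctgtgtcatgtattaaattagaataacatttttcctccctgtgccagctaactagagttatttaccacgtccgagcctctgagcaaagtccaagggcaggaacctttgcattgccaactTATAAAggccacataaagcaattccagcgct
The motifs were AGGTCA, a half-site bound by many nuclear receptors, the extended form CAAGGTC, the E-box CACGTG, the hepatocyte factor sequence GTTAAT, and the TATA box sequence TATAAA. Each was searched on both strands, and no 2 of the matches overlapped. The Abcb11 window held AGGTCA on the opposite strand, read as TGACCT, 56 to 51 bases upstream of the start. The same motif stood in genes that did not pass, on the opposite strand 232 to 227 and 210 to 205 bases upstream in Akr1d1 and on the gene's strand 87 to 82 bases upstream in the second Slc10a1 window. The Cyp8b1 window held TATAAA on the gene's strand 31 to 26 bases upstream, and the first Slc10a1 window held it on the opposite strand, read as TTTATA, 128 to 123 bases upstream. RefSeq promoters were matched for 6 of the 9 genes, in 7 windows because Slc10a1 has 2 starts. AGGTCA occurred in 3 of these 7 windows and in 14% of all 32851 promoter windows, whereas the TATA box sequence occurred in 2 of 7 and in 12.4%. None of the 7 windows held the extended form (3.32% of all windows), the E-box (6.02%) or the hepatocyte factor sequence (6.43%).

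In FROZ liver, DCA raised the first enzyme of the classical route and lowered the conjugation genes and the exporter Abcb11 at 313 mg/kg-d. Cyp7a1 rose 2.36-fold, and Slc27a5, Baat and Abcb11 fell by 0.40, 0.32 and 0.48 on the log2 scale. At 427 mg/kg-d Cyp7a1 was 2.03-fold higher and Abcb11 fell by 0.41 on the log2 scale. The other synthesis genes, Cyp8b1, Cyp27a1, Hsd3b7 and Akr1d1, did not pass the test at any dose. All differences are on the log2(CPM + 1) scale from limma, adjusted over all genes of a table by the Benjamini-Hochberg method (FDR), with an FDR under 0.05 as the threshold and DEG reserved for genes that also changed more than 2-fold.

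Of the 9 genes, 0 passed at 198 mg/kg-d in FROZ, where 1.56% of all genes passed, and 0 had an unadjusted limma p under 0.05. At 313 mg/kg-d 4 passed, 1 higher and 3 lower, against 26.7% of all genes (20.5% higher and 6.15% lower). At 427 mg/kg-d 2 passed, 1 higher and 1 lower, against 30.1% of all genes (22.7% higher and 7.33% lower). Cyp7a1 was a DEG at both of the higher doses, where 2.31% and 3.5% of all genes were. The median log2 difference of the 9 genes was 0.02, -0.18 and -0.15 at the 3 rising doses, and that of all genes was 0.07, 0.11 and 0.10. Median-ratio scaling, which sets the typical gene near 0, took the last 2 values to -0.0044 and -0.0069, so a difference from controls can be read against this shift.

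**Figure D1:**
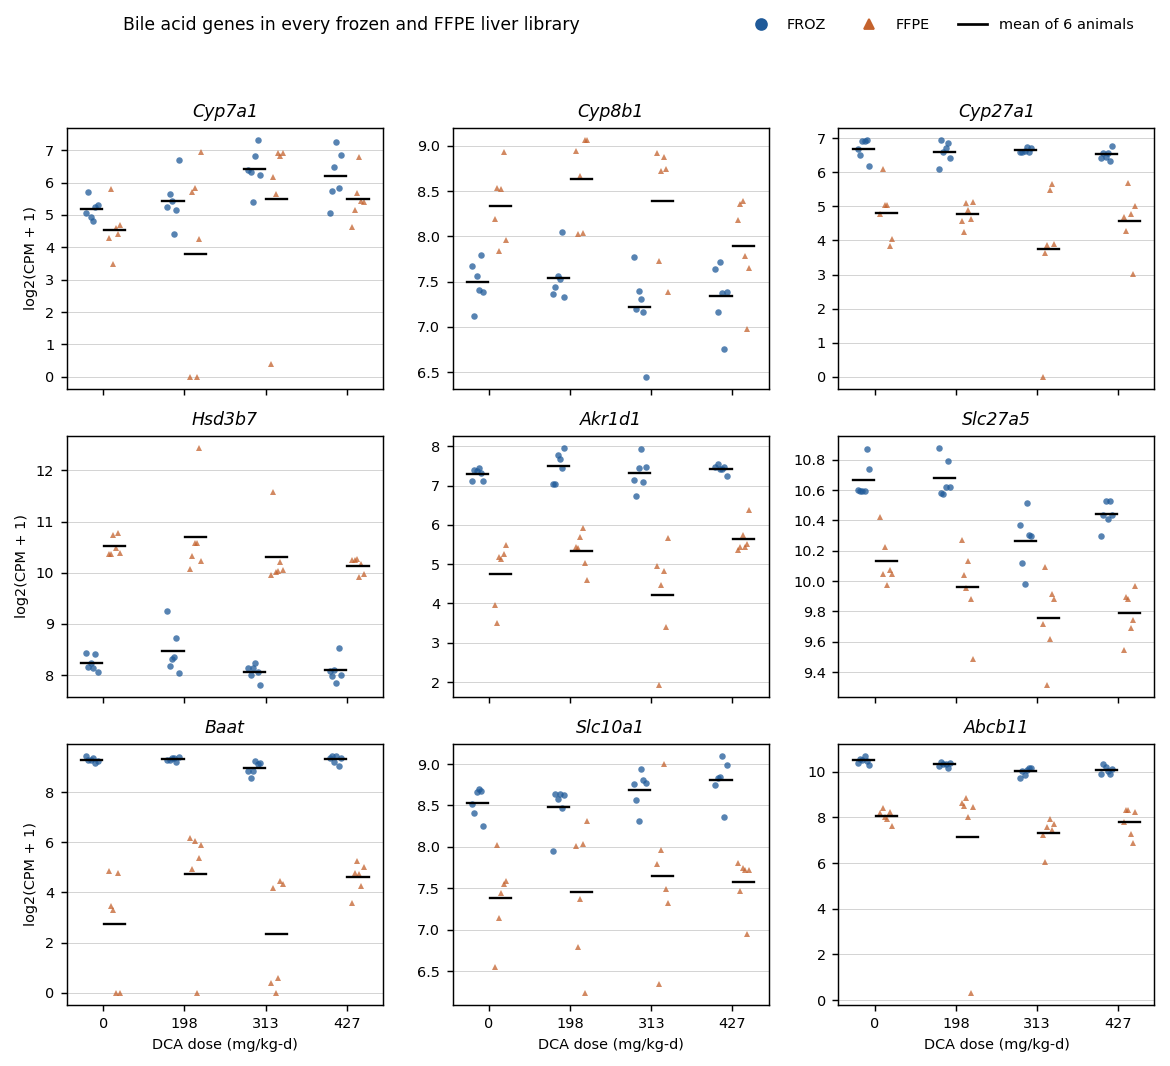
Level of each gene as log2(CPM + 1) in every library, by DCA dose in mg/kg-d, with FROZ libraries as circles, FFPE libraries as triangles and a line at the mean of each 6 animals; the scale of the vertical axis differs between panels. The FROZ points of Abcb11 at 313 mg/kg-d all sit below those of the controls, and FFPE values of Cyp7a1, Cyp27a1, Baat and Abcb11 drop to or near 0 in single libraries.

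The synthesis genes are taken first. Cyp7a1 in FROZ controls ranged from 27.1 CPM through a median of 34.6 CPM to 50.9 CPM. At 198 mg/kg-d the lowest, median and highest values were 20.4, 39.9 and 103 CPM, at 313 mg/kg-d they were 41.6, 81.2 and 159 CPM, and at 427 mg/kg-d 32.0, 72.2 and 153 CPM. Thus 5 of 6 animals at each of the higher doses lay above every control, and the remaining animal of each lay within the control range. The log2 difference from controls was 0.26 ± 0.33 (SE, limma FDR = 0.744) at 198 mg/kg-d, 1.24 ± 0.33 (limma FDR = 0.00664) at 313 mg/kg-d and 1.03 ± 0.33 (limma FDR = 0.0199) at 427 mg/kg-d. The SD was 0.31 in controls and 0.75, 0.64 and 0.81 at the 3 doses (log2, n = 6 each). Between neighbouring doses the differences did not pass (limma FDR = 0.0541 for 313 against 198 mg/kg-d and 0.790 for 427 against 313 mg/kg-d). The call at 427 mg/kg-d was lost with median-ratio scaling (log2 difference 0.88, limma FDR = 0.0565) and without animal 100 (0.81, limma FDR = 0.0649) or animal 102 (0.90, limma FDR = 0.0552).

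Cyp8b1, the enzyme that directs synthesis towards cholic acid, had FROZ medians of 179, 178, 152 and 166 CPM from the control to the highest dose, with all 3 treated ranges overlapping the control range of 137.8 to 221 CPM. Its largest log2 difference from controls was -0.27 ± 0.17 (SE, limma FDR = 0.254) at 313 mg/kg-d, with a 95% interval from -0.63 to 0.08. Cyp7a1 passed the test where Cyp8b1 did not, and the difference between the 2 genes was not tested.

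Cyp27a1, the sterol hydroxylase of the alternative route and of side-chain oxidation, had FROZ medians of 110, 99.6, 96.3 and 90.5 CPM in order of dose. The highest dose differed from controls by -0.17 ± 0.13 (log2, SE, limma FDR = 0.338). Hsd3b7, which oxidises the sterol ring, had medians of 292, 322, 273 and 264 CPM, and the log2 difference at 427 mg/kg-d was -0.15 ± 0.14 (SE, limma FDR = 0.480). Akr1d1, the reductase that completes the bent ring structure, had medians of 163, 188, 158 and 174 CPM and a log2 difference of 0.13 ± 0.16 (SE, limma FDR = 0.573) at that dose. For these 3 genes the treated and control ranges overlapped at every dose. The 95% intervals at 427 mg/kg-d, from -0.43 to 0.09 for Cyp27a1, from -0.44 to 0.15 for Hsd3b7 and from -0.19 to 0.45 for Akr1d1, leave out a 2-fold change in either direction.

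The conjugation genes came next. Slc27a5, the ligase that joins bile acids to coenzyme A, had FROZ values of 1542, 1551 and 1873 CPM as lowest, median and highest in controls and 1526, 1573 and 1883 CPM at 198 mg/kg-d. For animals at 313 mg/kg-d these were 1008, 1260 and 1464 CPM, and at 427 mg/kg-d 1256, 1385 and 1479 CPM. At both of the higher doses all 6 animals lay below every control. The log2 difference was -0.40 ± 0.09 (SE, limma FDR = 0.00119) at 313 mg/kg-d and -0.23 ± 0.09 (SE, limma FDR = 0.0512) at 427 mg/kg-d, which just missed the threshold. At 427 mg/kg-d it passed in 5 of 6 alternative settings (-0.37, limma FDR = 0.00285, with median-ratio scaling) but in 1 of 12 fits that left out an animal, with a limma FDR of up to 0.131.

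Baat, which joins taurine to the activated bile acid, had FROZ values of 576.2, 618 and 694.5 CPM in controls and 586, 637.5 and 687 CPM at 198 mg/kg-d. In the 313 mg/kg-d group they were 374, 516 and 607 CPM, with 4 of 6 animals below every control, and at 427 mg/kg-d 530, 666 and 706 CPM. Baat thus fell at the middle dose (-0.32 ± 0.10, log2, SE, limma FDR = 0.0157) and had a log2 difference from controls of 0.03 ± 0.10 (limma FDR = 0.874) at the highest, whose sign turned with median-ratio scaling (-0.12, limma FDR = 0.431). The step from 313 to 427 mg/kg-d was itself an increase of 0.35 ± 0.10 (limma FDR = 0.0479). The fall at 313 mg/kg-d did not pass without animal 74 (-0.24, limma FDR = 0.0543).

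Of the transporters, Abcb11 fell and Slc10a1 did not pass at any dose with all animals and the settings used throughout. Slc10a1, the sodium-dependent carrier that takes bile acids up from portal blood, had FROZ values of 304, 385 and 414 CPM in controls and 328, 456 and 549 CPM at 427 mg/kg-d. There 5 of 6 animals lay above every control, and the log2 difference was 0.28 ± 0.13 (SE, limma FDR = 0.101), or 0.13 (limma FDR = 0.494) with median-ratio scaling. It passed with array quality weights (0.30, limma FDR = 0.0314) and without animal 101 (0.37, limma FDR = 0.0235). At 198 and 313 mg/kg-d the difference was -0.05 ± 0.13 (limma FDR = 0.884) and 0.16 ± 0.13 (limma FDR = 0.392).

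Abcb11, the pump that moves bile salts into the bile canaliculus and whose promoter is printed above, had FROZ values of 1259, 1448 and 1679 CPM in controls. At 198 mg/kg-d the lowest, median and highest were 1150, 1304 and 1359 CPM, at 313 mg/kg-d 861, 1080 and 1163 CPM, and at 427 mg/kg-d 950, 1088 and 1305 CPM. All 6 animals at 313 mg/kg-d and 5 of 6 at 427 mg/kg-d lay below every control, and all 18 treated animals lay below the control mean. The log2 difference was -0.17 ± 0.09 (SE, limma FDR = 0.344), -0.48 ± 0.09 (limma FDR = 0.000382) and -0.41 ± 0.09 (limma FDR = 0.00138) at 198, 313 and 427 mg/kg-d. The last 2 calls held in 6 of 6 alternative settings and without each of 12 animals in turn.

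Of the 9 genes, 2 (Slc27a5 and Abcb11) had all 6 animals at 313 mg/kg-d below the control range, as did 2.39% of all genes. At 427 mg/kg-d Slc27a5 alone did, against 3.27% of all genes. In the step from 198 to 313 mg/kg-d 3 of the 9 genes passed, Slc27a5 (-0.42 ± 0.09, log2, SE, limma FDR = 0.00224), Baat (-0.34 ± 0.10, limma FDR = 0.0213) and Abcb11 (-0.30 ± 0.09, limma FDR = 0.0330), against 11.7% of all genes (3.65% lower). In the step from 313 to 427 mg/kg-d Baat alone passed, against 3.07% of all genes (1.73% higher). A linear trend with dose passed for 3 of the 9 genes, against 32.2% of all genes (24.4% higher and 7.73% lower). Per 100 mg/kg-d, Cyp7a1 rose by 0.29 ± 0.08 (log2, SE, limma FDR = 0.00574), Abcb11 fell by 0.11 with an SE of 0.02 (limma FDR = 0.000401), and Slc27a5 fell by 0.08 with an SE of 0.02 (limma FDR = 0.0174).

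**Figure D2:**
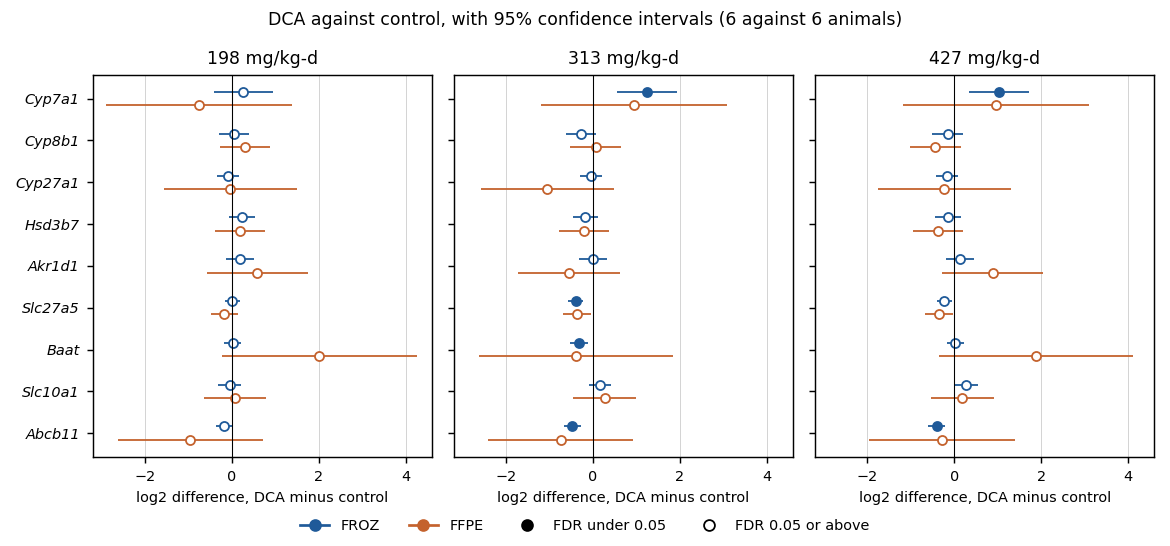
Log2 difference between each DCA dose and the controls for the 9 genes, with 95% confidence intervals; blue marks FROZ, orange FFPE, and filled points have an FDR under 0.05 (6 treated against 6 control animals). Filled points appear only in FROZ, for Cyp7a1, Slc27a5, Baat and Abcb11 at 313 mg/kg-d and for Cyp7a1 and Abcb11 at 427 mg/kg-d, and the FFPE intervals are wider for all 9 genes.

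The summed FROZ level of the hepatocyte markers was lower at the doses at which Abcb11 fell, while single markers differed in sign. It had a median of 41520 CPM in controls, 35830 CPM at 313 mg/kg-d (31540 to 41240) and 32440 CPM at 427 mg/kg-d (31190 to 36390), with 1 of 7 markers lower at 313 mg/kg-d (6.15% of all genes) and 2 of 7 lower at 427 mg/kg-d by limma (7.33% of all genes). Apoc3 passed at both doses (-0.33 and -0.31, limma FDR = 0.00877 and 0.0119) and Fgb at 427 mg/kg-d (-0.70, limma FDR = 0.00116), whereas Ttr had values of 0.32 at both (limma FDR = 0.147 and 0.131). Of the other cell types at 427 mg/kg-d, 3 of 5 macrophage, 1 of 6 endothelial and 1 of 5 stellate cell and fibroblast markers were lower, and 0 of 3 cholangiocyte and 0 of 3 lymphocyte markers passed (0 with an unadjusted p under 0.05 in either list). The part of these shifts in the results above was not tested, and in bulk liver fewer cells of a type and less RNA per cell cannot be told apart.

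The rest of the pathway held larger differences. Of 34 further genes of bile acid metabolism, transport and control, 32 were listed in FROZ. At 198 mg/kg-d 1 was higher (0 with median-ratio scaling), against 1.12% of all genes. At 313 mg/kg-d 9 were higher and 6 lower, where 20.5% and 6.15% of all genes were higher and lower. At 427 mg/kg-d 12 were higher and 6 lower, where 22.7% and 7.33% of all genes were. With median-ratio scaling the last counts were 11 higher and 8 lower, and no call of the list turned its direction at any dose. The median log2 difference of the 32 genes was 0.07, 0.09 and 0.16 at the 3 doses.

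Of a list of 6 further sterol-modifying enzymes, 5 were listed. Lower were 2 at 313 mg/kg-d (Cyp39a1 and Cyp2c70, against 6.15% of all genes) and 2 at 427 mg/kg-d (Cyp7b1 and Cyp2c70, against 7.33%). The 1 gene that was higher, at 427 mg/kg-d, was Akr1c14 (0.55 ± 0.14, log2, SE, limma FDR = 0.00273), an aldo-keto reductase and not a hydroxylase. Cyp2c70 and Akr1c14 are named after their values were seen. Cyp7b1, the oxysterol hydroxylase of the alternative route, had log2 differences of 0.68 ± 0.26 (SE, limma FDR = 0.165) at 198 mg/kg-d, -0.31 ± 0.26 (limma FDR = 0.412) at 313 mg/kg-d and -1.85 ± 0.26 (limma FDR = 3.54e-06) at 427 mg/kg-d. Its difference at the highest dose was thus opposite in sign to that of Cyp7a1. Cyp39a1, another oxysterol hydroxylase, fell at 313 mg/kg-d (-1.07 ± 0.24, limma FDR = 0.00175) and was at 0.11 ± 0.24 (limma FDR = 0.774) at 427 mg/kg-d.

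Side-chain shortening takes place in peroxisomes, and 3 of its 6 listed genes were higher at each of the higher doses with none lower. Over all genes 20.5% were higher at 313 mg/kg-d and 22.7% at 427 mg/kg-d. Abcd3, a peroxisomal membrane transporter, rose by 1.62 ± 0.23 and 1.71 ± 0.23 (log2, SE, limma FDR = 8.14e-06 and 1.80e-06) at 313 and 427 mg/kg-d. Slc27a2, an acyl-CoA synthetase, rose by 0.55 ± 0.12 and 0.68 ± 0.12 (limma FDR = 0.000776 and 5.52e-05). Hsd17b4, the peroxisomal multifunctional enzyme, rose by 0.84 ± 0.13 and 0.86 ± 0.13 (limma FDR = 1.58e-05 and 6.12e-06).

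Of 11 listed transporters besides Slc10a1 and Abcb11, 5 were higher and 2 lower at 313 mg/kg-d (20.5% and 6.15% of all genes). At 427 mg/kg-d 5 were higher and 3 lower (22.7% and 7.33% of all genes). The organic anion uptake carrier Slco1a1 had log2 differences of -0.96 ± 0.19 and -1.497 ± 0.19 (SE, limma FDR = 0.000484 and 1.06e-06) at these doses, and its relative Slco1a4 had -1.88 ± 0.30 and -1.17 ± 0.30 (limma FDR = 4.17e-05 and 0.00387), so both fell. The export pumps Abcc3, of the basolateral membrane, and Abcc2, of the canalicular membrane, rose, by 1.18 ± 0.22 and 1.75 ± 0.22 for Abcc3 (limma FDR = 0.000247 and 7.80e-07) and by 0.55 ± 0.14 and 1.08 ± 0.14 for Abcc2 (limma FDR = 0.00592 and 2.01e-06). The phospholipid floppase Abcb4 rose by 1.295 ± 0.21 and 1.52 ± 0.21 (limma FDR = 3.55e-05 and 2.30e-06), and the sterol transporter Abcg5 by 0.74 ± 0.17 and 1.05 ± 0.17 (limma FDR = 0.00168 and 2.38e-05). With median-ratio scaling Abcc2 and Abcg5 were no longer DEGs at 427 mg/kg-d. Abcb4 and Abcg5 thus rose at the doses at which Abcb11 fell.

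Of 10 receptors and regulators, 1 was higher and 2 lower at 313 mg/kg-d (20.5% and 6.15% of all genes) and 3 higher and 1 lower at 427 mg/kg-d (22.7% and 7.33%), and none was a DEG in FROZ. Nr1h4 and Nr0b2 are named because of the background above and were chosen after their values were seen. Nr1h4 rose by 0.36 ± 0.08, 0.55 ± 0.08 and 0.97 ± 0.08 (log2, SE, limma FDR = 0.0337, 2.41e-05 and 1.57e-09) at 198, 313 and 427 mg/kg-d, with the call at 198 mg/kg-d lost under median-ratio scaling. Nr0b2 fell by 0.87 with an SE of 0.25 (limma FDR = 0.00955) at 313 mg/kg-d and was at -0.20 ± 0.25 (limma FDR = 0.592) at 427 mg/kg-d. The others of the list that passed were Fgfr4, Klb and Hnf4a. Fgfr4 was lower at 313 and 427 mg/kg-d (-0.44 ± 0.14 and -0.64 ± 0.14, limma FDR = 0.0200 and 0.000905). Klb (0.84 ± 0.16, limma FDR = 0.000179) and Hnf4a (0.45 ± 0.12, limma FDR = 0.00441) were higher at 427 mg/kg-d.

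**Figure D3:**
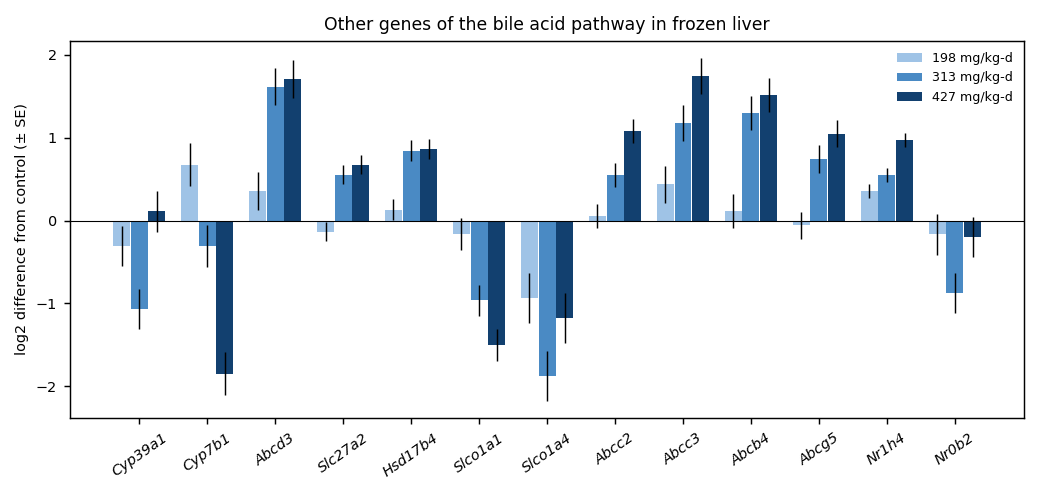
Log2 difference from controls in FROZ liver (bars, with SE as error bars; 6 against 6 animals) for the further pathway genes that were DEGs at any dose in either preservation and for Nr1h4 and Nr0b2, with darker bars for higher doses in mg/kg-d. Abcd3, Abcc2, Abcc3, Abcb4, Abcg5 and Nr1h4 stand above 0 and Slco1a1 and Slco1a4 below 0 at 313 and 427 mg/kg-d, while Cyp7b1 falls to -1.85 at 427 mg/kg-d.

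Because Cyp7a1 is rhythmic, genes of the clock and of its output are given beside it. Of 12 listed in FROZ, 2 were higher at 198 mg/kg-d (1.12% of all genes), 5 higher and 2 lower at 313 mg/kg-d (20.5% and 6.15%), and 7 higher and 3 lower at 427 mg/kg-d (22.7% and 7.33%). Nr1d1, a clock repressor, rose by 1.24 ± 0.17, 2.598 ± 0.17 and 3.21 ± 0.17 (log2, SE, limma FDR = 0.000261, 6.32e-11 and 3.91e-13) at the 3 doses. Dbp, a clock output activator, was at 0.11 ± 0.44 (limma FDR = 0.933) at 198 mg/kg-d and rose by 1.95 ± 0.44 (limma FDR = 0.00176) and 3.13 ± 0.44 (limma FDR = 4.48e-06) at the higher doses. Arntl was at -0.57 ± 0.26 (limma FDR = 0.109) and then fell by 1.23 with an SE of 0.26 (limma FDR = 0.000639) at these doses, and Nfil3 fell by 0.97 and 1.44 (SE 0.20, limma FDR = 0.000830 and 3.94e-06). With median-ratio scaling 4 were higher and 3 lower at 313 mg/kg-d, with none reversed. The part of the clock shift, or of the time of day of sampling, in the Cyp7a1 result was not tested.

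The genes whose FROZ level was most like that of Cyp7a1 over the 24 libraries, among the 5874 genes at or above 10 CPM on average, were Exosc9 (Pearson r = 0.73), Chmp7 (0.71) and Otulin (0.70). Spearman rho was 0.69, 0.72 and 0.75, r without the 2 farthest libraries 0.67, 0.66 and 0.63, and r once dose means were removed 0.43, 0.48 and 0.58. For Cyp8b1 they were Gabarapl1 (r = 0.68), C2cd3 (0.67) and Trim37 (0.66). Their rho was 0.67, 0.38 and 0.67, r without the 2 farthest libraries 0.48, 0.54 and 0.59, and r after removal of dose means 0.68, 0.74 and 0.59. These are descriptions of a ranking over all those genes, and the points share dose groups and libraries' scaling.

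Among the 9 genes themselves, 36 pairs were compared over the 24 FROZ libraries after dose means were removed. One pair passed, Cyp27a1 with Slc10a1, with Pearson r = 0.70 (permutation within dose, p = 0.00012, FDR over 36 pairs = 0.00432) and Spearman rho = 0.68 (permutation p = 0.00079, FDR = 0.0284). Without the 2 animals farthest from the median of Cyp27a1, 8 and 49, r was 0.52. Cyp7a1 had no partner that passed, and its strongest relation by p was with Slc10a1 (r = 0.40, permutation p = 0.0968, FDR = 0.317; rho = 0.38, permutation p = 0.0994).

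In FFPE, 0 of the 9 genes passed at 198, 313 or 427 mg/kg-d, where 0.0599%, 1.08% and 2.41% of all genes passed, and 0 passed the dose trend, where 2.17% did. The median log2 difference of all FFPE genes was -0.19, -0.12 and 0.18 at the 3 rising doses, and that of the 9 genes was 0.07, -0.37 and -0.23. An unadjusted limma p under 0.05 was found for 0, 1 and 1 genes at the 3 doses and for 1 gene in the trend. At 313 and 427 mg/kg-d that gene was Slc27a5, with FFPE values of 1005, 1066 and 1369 CPM as lowest, median and highest in controls, 637, 891 and 1090 CPM at 313 mg/kg-d and 748, 901 and 1001 CPM at 427 mg/kg-d. All 6 animals at 427 mg/kg-d lay below every control, and the log2 difference was -0.34 ± 0.16 (SE, limma FDR = 0.502). The direction was that of the FROZ libraries, though the FFPE test did not pass.

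Cyp7a1 in FFPE had lowest, median and highest values of 10.2, 21.8 and 54.3 CPM in controls, 0, 34.4 and 121 CPM at 198 mg/kg-d, 0.32, 91.4 and 120 CPM at 313 mg/kg-d, and 23.5, 41.3 and 109 CPM at 427 mg/kg-d. Here 5 of 6 animals at 313 mg/kg-d lay between 49.6 and 120 CPM, and the remaining library, of animal 73, held 1 read. The log2 difference at 313 mg/kg-d was 0.94 ± 1.05 (SE, limma FDR = 0.801) with all libraries and 1.95 ± 0.46 (limma FDR = 0.0285) without the 4 FFPE libraries with over 1000 genes at 0, a choice made after the data were seen. Without animal 73 alone it was 1.95 ± 0.91 (limma FDR = 0.468), and it passed in none of the 12 fits that left out 1 library. At 427 mg/kg-d, where none of those 4 libraries belongs, the value was 0.96 ± 1.05 (limma FDR = 1.00) with all libraries. That SE was pooled over all dose groups.

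Hsd3b7 in FFPE was below the control range in all 6 animals at 427 mg/kg-d, with values of 970, 1183 and 1237 CPM against 1312, 1386 and 1750 CPM in controls. The log2 difference was -0.38 ± 0.28 (SE, limma FDR = 0.904), so the call did not pass. That SE was pooled over all dose groups. The SD of Hsd3b7 was 0.19 in controls and 0.15 at 427 mg/kg-d, but 0.87 and 0.63 at 198 and 313 mg/kg-d (log2). It passed in 0 of 7 alternative settings, with a limma FDR between 0.0663 and 0.998. Hsd3b7 and Slc27a5 were the 2 of 9 genes whose FFPE ranges did not overlap with the controls in that direction, as for 1.54% of all genes. Abcb11, which fell in FROZ, had FFPE medians of 278, 353, 184.5 and 261 CPM, and the log2 differences were -0.95 ± 0.82, -0.74 ± 0.82 and -0.28 ± 0.82 (SE, limma FDR = 0.671, 0.797 and 1.00). Its FFPE value at 198 mg/kg-d turned on animal 53, whose library held 1 read. This library also entered the SE at the other doses, which was pooled over all groups. The SD of Abcb11 was 0.28 in controls and 3.34, 0.67 and 0.62 at the 3 rising doses (log2). At 313 mg/kg-d all 6 FFPE animals lay below the control mean and 4 below every control, against 3 and 2 at 427 mg/kg-d.

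Whether the DCA effect differed between the preservations was tested by limma on each animal's own difference between FFPE and FROZ. Of the 9 genes, 0 passed at 198, 313 or 427 mg/kg-d, and 0 had an unadjusted limma p under 0.05. Over the 6591 shared genes 0.0303%, 0% and 0.0303% passed, and 750, 487 and 146 genes had an unadjusted limma p under 0.05. The intervals were wide for genes with FFPE libraries that dropped out at any dose, since the spread was pooled over all dose groups. For Cyp7a1 the libraries with 0 or 1 read were at 198 and 313 mg/kg-d. The 95% interval at 427 mg/kg-d ran from -2.14 to 2.01 (log2) for Cyp7a1 and from -0.49 to 4.19 for Baat. The intervals were narrower for Slc27a5 (-0.58 to 0.35) and Cyp8b1 (-0.88 to 0.31). A test that did not pass does not show that the effects were alike.

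The level of the genes did differ between preservations. In the 6 controls, with both tables rescaled to the shared genes, 8 of the 9 genes passed, 2 higher and 6 lower in FFPE, against 53% of all shared genes (31.2% higher and 21.8% lower). Hsd3b7 was higher in FFPE by 2.22 ± 0.25 (log2, SE, limma FDR = 1.04e-07) and Cyp8b1 by 0.78 ± 0.20 (limma FDR = 0.00255), each in 6 of 6 animals. Baat was lower by 6.62 with an SE of 0.80 (limma FDR = 3.11e-07) in 6 of 6 animals, a value that depends on the offset since 2 FFPE controls held no read. Akr1d1 (-2.603 ± 0.34, limma FDR = 1.05e-06), Abcb11 (-2.47 ± 0.67, limma FDR = 0.00358) and Cyp27a1 (-1.94 ± 0.48, limma FDR = 0.00182) were lower in 6 of 6 animals. So were Slc10a1 (-1.21 ± 0.29, limma FDR = 0.00144) and Slc27a5 (-0.59 ± 0.16, limma FDR = 0.00337). Cyp7a1 was lower in 5 of 6 animals and did not pass (-0.69 ± 0.71, limma FDR = 0.426). Its 6 control differences ran from -1.51 to 0.03. The SE of each gene was pooled over all dose groups, so the FFPE Cyp7a1 libraries with 0 or 1 read at 198 and 313 mg/kg-d entered it. This result does not show that the Cyp7a1 level was alike in FROZ and FFPE.

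**Figure D4:**
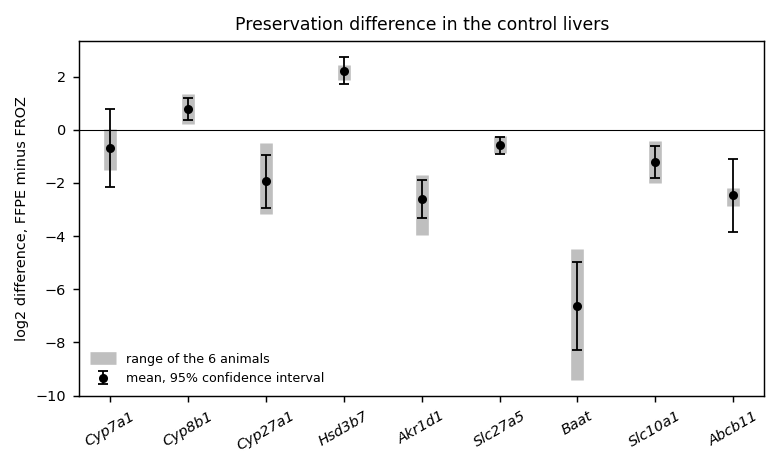
FFPE minus FROZ difference in log2(CPM + 1) for the 9 genes in the 6 control animals, after rescaling to the genes in both tables; points are means with 95% confidence intervals and grey bars span the 6 animals. Hsd3b7 and Cyp8b1 lie above 0, Cyp7a1 has an interval that spans 0, and Baat lies lowest at -6.62. The intervals use a spread pooled over all dose groups.

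The ranks of individual livers in Cyp7a1 were related between preservations. After dose means were removed, FROZ and FFPE Cyp7a1 over the 24 animals had Spearman rho = 0.57 (permutation within dose, p = 0.00263, FDR over 9 genes = 0.0237) and Pearson r = 0.51 (permutation p = 0.0260, FDR = 0.0779), or r = 0.39 without the 2 animals farthest from the median. The 3 FFPE libraries with 0 or 1 read, of animals 49, 52 and 73, stood apart from the rest, and over the remaining 21 animals r was 0.78 (permutation p = 4e-05) and rho 0.75 (permutation p = 0.00041), with r = 0.67 without the 2 farthest, a choice made after the data were seen. At 198 mg/kg-d the same animal, 54, had the highest level in both preservations, 103 CPM in FROZ and 121 CPM in FFPE, and at 427 mg/kg-d animal 100 did, with 153 and 109 CPM. At 313 mg/kg-d the highest level was in animal 77 in FROZ (159 CPM) and in animal 76 in FFPE (120 CPM), and in controls animal 4 was highest in both (50.9 and 54.3 CPM).

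Cyp8b1 had r = 0.59 (permutation p = 0.00749, FDR = 0.0674) and rho = 0.51 (permutation p = 0.0185, FDR = 0.0786), and r fell to 0.32 without the 2 farthest animals. Abcb11 had r = 0.34 (permutation p = 0.0167, FDR = 0.0751) and rho = 0.39 (permutation p = 0.0262, FDR = 0.0786). Over 23 animals, without the FFPE library with 1 read, r was 0.35 (permutation p = 0.185). For the other 6 genes r lay between -0.02 and 0.33 and the smallest permutation p was 0.245.

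Of the other pathway genes, 25 were listed in FFPE. None passed at 198 mg/kg-d (0.0599% of all genes), 3 were higher at 313 mg/kg-d (0.764%), and 4 were higher and 1 lower at 427 mg/kg-d (1.54% and 0.869%). Cyp7b1 fell by 2.83 with an SE of 0.47 (log2, limma FDR = 0.000201) at 427 mg/kg-d, and Abcc3 rose by 1.81 ± 0.32 (limma FDR = 0.000628) and Abcc2 by 1.48 ± 0.29 (limma FDR = 0.00149). Slc27a2 rose by 1.09 ± 0.17 (limma FDR = 5.74e-05) and Hsd17b4 by 1.13 ± 0.22 (limma FDR = 0.00169). All 5 genes also passed in FROZ at that dose in the same direction. With median-ratio scaling Slc27a2 was no longer a DEG in FFPE.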

How the data were processed

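Liver RNA (FROZ) or lysate (FFPE) of 24 mice was measured by TempO-Seq. According to the study's methods and processing notes, the authors aligned reads to mm10 with STAR (2.6) in Partek, counted genes by expectation maximization, removed low genes, and deposited log2(CPM + 1) values, scaled separately for FROZ and FFPE, so that a level is a share of the genes listed in its own table. Abundant probes were attenuated in the assay, and none of the 9 genes is on that list.

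Groups were taken from sample titles. Dose groups were compared with limma 3.58.1 (R 4.3.3; trended variance prior) over all 24 libraries of a table. All 48 libraries were used. FFPE minus FROZ differences used the animal as the block: same-numbered libraries come from 1 animal, and 21 of 24 FROZ libraries correlated best with their own animal's FFPE library within dose (median r = 0.128 over 4815 genes). Code was tested on simulated data. A minimum recovery of planted changes was required of the FROZ dose fit and of the paired fits, but not of the FFPE dose fit. The genes, lists and tests were chosen with earlier results of these data known. Named are the 9 genes, pathway genes that were DEGs at any dose, clock genes, and the 3 genes most like Cyp7a1 or Cyp8b1. Some further pathway genes that passed are named as well, after their values were seen. Permutations within dose numbered 100000. Alternatives were other scalings, offsets, filters, priors, weights and left-out animals. Replicates are separate animals of 1 experiment.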

Additional observations from a re-analysis of the deposited data

Results flagged for a closer look

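Each gene was examined in each group of 6 libraries (72 groups), and 10 values stood apart from the other 5 of their group by Dixon's criterion. Chance flags about 1 in 20 groups. In FROZ there were 3: Cyp8b1 in animal 53 at 198 mg/kg-d had a log2(CPM + 1) of 8.05, against 7.33 to 7.56 in the others. Slc10a1 in animal 49 at 198 mg/kg-d was low at 7.95, against 8.47 to 8.64. Hsd3b7 in animal 101 at 427 mg/kg-d was high at 8.53, against 7.84 to 8.09.

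In FFPE there were 7. There were 4 low values that rested on 0 or 1 read: Cyp7a1 in animal 73 at 313 mg/kg-d (0.40, against 5.66 to 6.92), Cyp27a1 in the same animal (0.0, against 3.64 to 5.66), Baat in animal 52 at 198 mg/kg-d (0.0, against 4.95 to 6.16) and Abcb11 in animal 53 at 198 mg/kg-d (0.33, against 8.04 to 8.86). There were 3 high values: Hsd3b7 in animal 53 at 198 mg/kg-d (12.45, against 10.08 to 10.59), Hsd3b7 in animal 74 at 313 mg/kg-d (11.58, against 9.95 to 10.2) and Akr1d1 in animal 102 at 427 mg/kg-d (6.37, against 5.37 to 5.74). The library of animal 53 thus held the lowest Abcb11 and the highest Hsd3b7 of its group, while the FROZ library of the same animal had an Hsd3b7 level of 421 CPM within a group range of 261 to 608 CPM.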

How the results depend on the processing

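In FROZ at 198 mg/kg-d 0 genes passed in every setting and without each of 12 animals. At 313 mg/kg-d 4 genes passed with median-ratio scaling, an offset of 0.1 CPM, a mean of at least 5 CPM, a variance prior without trend, array quality weights and the 2 groups alone, and 3 to 4 when 1 of 12 animals was left out. At 427 mg/kg-d the number with an FDR under 0.05 was 2 and became 4 with array quality weights. It was 3 with an offset of 0.1 CPM, a mean of at least 5 CPM or the 2 groups alone. A variance prior without trend left it at 2. So did median-ratio scaling, but with Slc27a5 in place of Cyp7a1. At that dose the number was 1 to 4 without 1 animal (4 without animal 101, 1 without animal 100 or 102). The 1 DEG there, Cyp7a1, was not a DEG with median-ratio scaling (0 DEGs), nor without control animals 5 or 6 or treated animals 99, 100 or 102 (0 to 1 over the animals left out). In FFPE at 313 mg/kg-d, leaving out the 4 libraries with over 1000 genes at 0 raised the count from 0 to 1, and DEGs from 0 to 1 (Cyp7a1), a setting chosen after the data were seen. With dose as its rank Slc10a1 joined the FROZ trend (4 genes in place of 3; limma FDR = 0.0484). No called difference of the 9 genes turned its sign in these settings. The CPM scaling left the median of all genes at 0.11 and 0.10 at 313 and 427 mg/kg-d in FROZ, and median-ratio scaling took it to -0.0044 and -0.0069. Without the replicate block, the pairing by animal, 0 of the 9 genes had a DCA effect that differed between preservations at any dose, as with it, and 8 differed in level in controls, as with it. FFPE depths were 1.83 to 6.01 M reads, and their part in the FFPE spread was not tested.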
